A study of Mus musculus with 7 samples.

Results

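Untreated cells of PDKC1, a mouse line labelled as basal cell carcinoma, were compared with newborn mouse epidermis on Affymetrix expression arrays. The comparison used 3 of the 7 arrays of the series: 1 array of PDKC1 at 0 h, without cyclopamine, and 2 arrays of normal epidermis at postnatal day 0. All 18193 genes with a probe set assigned to 1 gene were measured on each array. The remaining arrays were 2 of dissected basal cell carcinoma and 2 of the line exposed for 6 h or 10 h to cyclopamine, an inhibitor of the Hedgehog protein Smoothened.

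The labels describe the epidermis only as normal and newborn, and the line only as PDKC1. The genotype, strain and passage of neither are given in the sources used here, nor whether the line is a single clone, what tumour it was derived from, or whether the epidermis was pooled from several animals. PDKC1 cells were plated in 6-well dishes in conditioned medium, which is not described further. Labelled RNA was prepared from 100 ng of total RNA for each epidermis array and from 2 µg for the PDKC1 array, so that RNA input, culture and line origin cannot be told apart from one another in any difference below.

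Epidermis is a layered epithelium. Keratinocytes attached to the basement membrane divide and express the keratin pair Krt5 and Krt14 with integrins and the transcription factor Trp63. As they move up they replace that pair with Krt1 and Krt10 in the spinous layer, then make the proteins and lipids of the granular layer that are crosslinked into the cornified barrier. At birth the barrier is complete, and the tissue also holds growing hair follicles, melanocytes, immune cells and some dermal cells. A cultured line has no such layers, so the comparison asks which parts of the keratinocyte programme the line carries and which of its growth genes stand above or below the tissue.

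Values are signal intensities, and differences are given as PDKC1 minus epidermis on the log2(intensity + 16) scale, which understates the change of dim genes. A gene was called higher or lower where PDKC1 lay at least 2-fold from both epidermis arrays in the same direction. With 1 PDKC1 array this rule is a description and not a test. A limma fit gave a second reading, with adjusted p-values and standard errors (SE). It takes the spread of the lone PDKC1 array to be that of the 2 epidermis and 2 tumour arrays. The labels do not say that the epidermis arrays came from separate animals, so these p-values measure only the spread between arrays, which may be technical.

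The epidermis arrays differed from each other by 2-fold or more at 1983 genes (10.9%), against 7592 and 7374 genes between PDKC1 and each of them. The 2 tumour arrays, which enter the limma spread, differed from each other at 3112 genes (17.1%). The rank correlation over genes, which are not independent replicates, was 0.957 within epidermis and 0.785 and 0.793 between PDKC1 and epidermis. Signal from the 5' end of transcripts was weaker in epidermis: the ratio of 3' to 5' intensity of the actin control probe sets was 3.98 and 2.84 there and 1.15 in PDKC1, and for Gapdh it was 5.27 and 4.52 against 0.726. On the tumour arrays this ratio was 11.3 and 93.1 for actin and 10.6 and 15.4 for Gapdh. Read with its 3' probe set Gapdh was 0.76 and 0.58 above the epidermis arrays in PDKC1, with its middle probe set 1.89 and 1.65 above, and with its 5' probe set 3.61 and 3.22 above, so that the middle and 5' readings passed the 2-fold rule and the 3' reading did not. The brightest probe set stood for each gene. Among the 9010 genes with several probe sets, 1441 of these were higher and 1750 lower (19.4%) in PDKC1, whereas the other probe sets of the same genes were higher in 23.5% and lower in 9.71%. The part of probe position in the differences below was not tested. Where another probe set of a named gene was called against its brightest one, or was called while the brightest was not, this is said beside the gene. For Itgb1, Sox9, Egfr, Grhl2, Tfap2a, Krt13, Cldn1, Prrx1, Cdca8, Mxi1, Mycl, Shh, Igf2 and Ccn1 at least 1 other probe set had the other sign without being called.

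By the 2-fold rule 2552 genes were higher in PDKC1 (14.0% of all genes) and 3258 were lower (17.9%), together 31.9%. The lower genes moved further. At least 4-fold differences numbered 698 higher and 1420 lower, and at least 16-fold differences 76 higher and 479 lower. The median over all genes was -0.06. In the limma fit 1803 genes (9.91%) were higher and 2518 (13.8%) lower at an adjusted p under 0.05. Of the 5810 genes called by the rule, 4099 (70.6%) were also called by limma in the same direction. Of 423 genes at 10000 or more on both epidermis arrays, 48 were under 100 in PDKC1. None of the 301 genes at 10000 or more in PDKC1 was under 100 on both epidermis arrays.

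**Figure D1:**
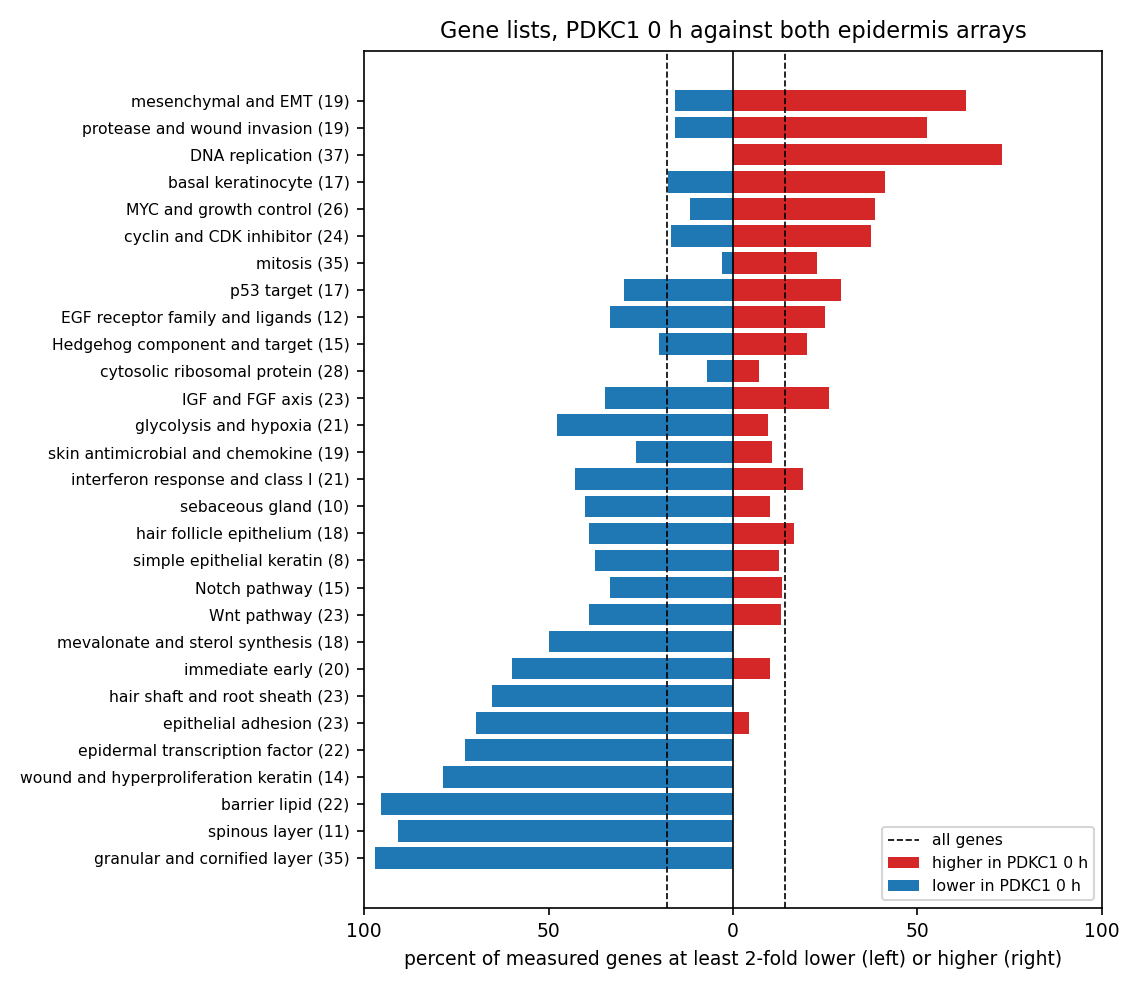
Percent of the measured genes of each list (number in brackets) at least 2-fold higher in PDKC1 0 h than both epidermis arrays (red, right) or lower than both (blue, left), sorted by the median difference. Dashed lines mark the share over all genes, 14.0% higher and 17.9% lower. The differentiation lists lie at the lower end, with 34 of 35 granular and cornified genes lower, and DNA replication has 27 of 37 genes higher and 0 lower.

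Most basal keratinocyte genes in PDKC1 were near or above the level of the tissue. Krt5 and Krt14, the keratins of the basal layer, and Trp63, the p53 relative that specifies stratified epithelium, were about as bright in the line as in epidermis, while receptors for the basement membrane were brighter. Of 17 measured basal genes 7 were higher and 3 lower, with a median of 0.80, beside 14.0% higher and 17.9% lower over all genes. The lower ones were Krt15, a basal keratin of resting epidermis and the follicle bulge, Lamb3 and Igfbp3.

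Krt5 read 29427 and 35513 on the epidermis arrays and 31322 in PDKC1, inside the epidermis range. Krt14 read 24757 and 31304 in epidermis and 33585 in the line, just above both arrays. Trp63 read 10363 and 11765 in epidermis and 8779 in the line, below both by less than 2-fold (adjusted p = 0.407). The dimmer probe sets of Trp63 went the other way: 3 of its 4 were called higher, among them one at 59.5 and 78.9 in epidermis and 2344 in PDKC1. For Trp63 the level relative to tissue therefore depended on the probe set, but the brightest reading on the PDKC1 array was within 2-fold of the tissue.

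Itgb1, the beta subunit shared by the basal laminin and collagen receptors, read 403 and 615 in epidermis and 10587 in PDKC1, 4.37 ± 0.39 (SE) higher (adjusted p = 0.000496), and 5 of its 6 probe sets were called higher. Itga3, its partner in the laminin receptor, read 419 and 522 against 5073, 9.45-fold above the nearer epidermis array. Cdh3, the P-cadherin of basal and follicle cells, read 98.9 and 175 against 1085. For these 3 genes PDKC1 lay clear of the epidermis pair. The hemidesmosome genes Itgb4 (426 and 450 against 2067) and Col17a1 (5339 and 7079 against 14694) were also called higher, the latter without passing limma (adjusted p = 0.161). Itga6 (4056 and 4813 against 7727), Dst and Lama3 stayed within 2-fold of at least one array by their brightest probe set. The other Itga6 probe set was called higher (1634 and 1756 against 6441), as were 2 of 4 for Dst, and 1 of 2 for Lama3 was called lower. Lamb3, a chain of the same laminin, was lower at 758 against 2127 and 3250, as was Igfbp3, a binder of insulin-like growth factors, at 56.6 against 229 and 265. Sox9, a follicle factor, and Egfr, the epidermal growth factor receptor, were 2.27-fold and 2.09-fold above the nearer array. Krt15, the furthest below, read 24436 and 30783 in epidermis and 957 in PDKC1, -4.82 ± 0.38 (SE) (adjusted p = 0.000321), 25.1-fold below the nearer array.

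**Figure D2:**
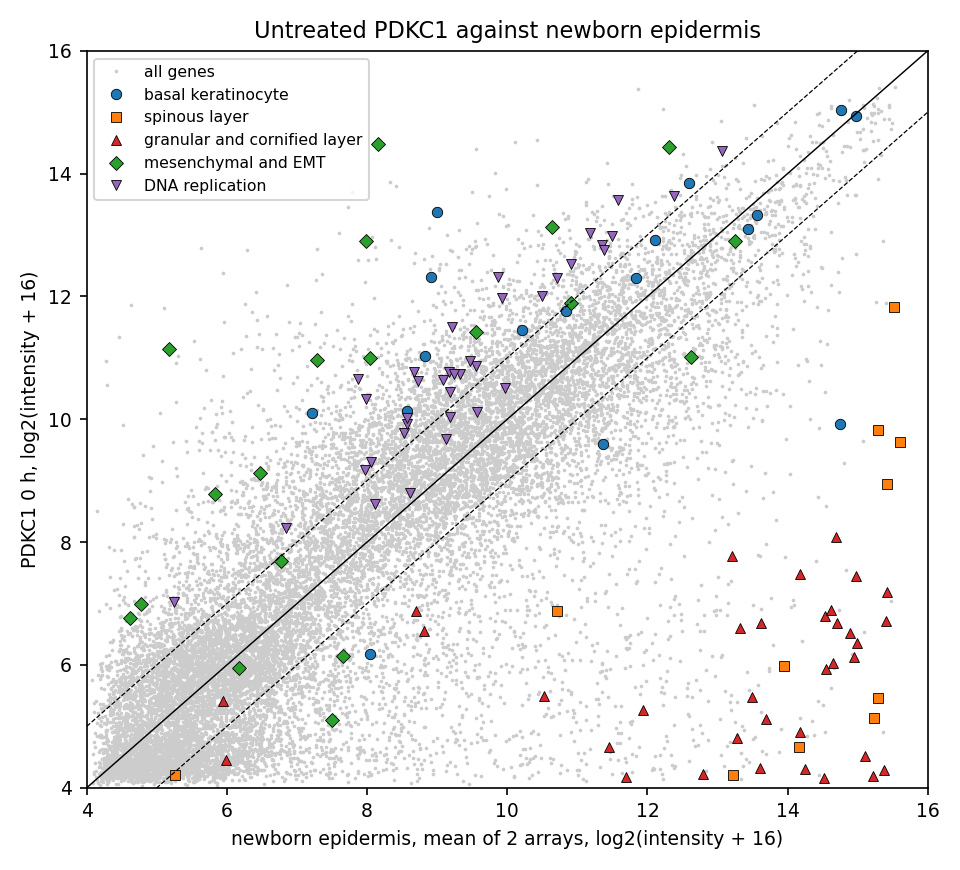
Each grey point is 1 of 18193 genes, with the mean of the 2 epidermis arrays on the x axis and PDKC1 0 h on the y axis, both as log2(intensity + 16). The solid line marks equality and the dashed lines 2-fold, and coloured symbols mark 5 gene lists. Granular, cornified and spinous genes crowd the lower right corner, most basal genes lie near or above the line (3 of 17 are called lower), and most mesenchymal and DNA replication genes lie above it.

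Nearly all measured genes of the suprabasal programme were lower in PDKC1 than in epidermis. Not all were dim there, and several, among them Krt10, Sbsn, Lor and Ivl, kept a signal above the array median of 78.3. Genes of the spinous layer were lower in 10 of 11 cases (median -6.47), those of the granular and cornified layers in 34 of 35 (median -8.03), and those of barrier lipid synthesis in 21 of 22 (median -5.20); no member of the 3 lists was higher. The summed intensity of the granular and cornified list was 687028 and 635836 in epidermis and 2118 in PDKC1. Limma called 10, 32 and 21 members lower, with none higher. Over all genes the 2-fold rule called 17.9% lower and 14.0% higher.

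In the spinous layer Krt1 read 39199 and 40934 in epidermis and 28.3 in PDKC1, -9.82 ± 0.25 (SE) (adjusted p = 2.41e-05). Its partner Krt10 read 48813 and 50560 against 777. Krt10 in the line was 61.6-fold below the nearer epidermis array. Krtdap, a secreted protein of differentiating keratinocytes, read 38140 and 38781 against 19.2. The desmosomal cadherins that replace the basal ones in upper layers were also dim: Dsg1a read 10843 and 8401 against 2.4, and Dsc1 read 20072 and 16845 against 9.4. Sbsn, a secreted suprabasal protein, read 46186 and 48027 against 3615, 12.7-fold below the nearer array. The list member not called was Krt2, at 25.8 and 18.9 in epidermis and 2.5 in the line, a keratin that was dim in the newborn tissue itself.

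Among granular and cornified genes Asprv1, a protease that processes profilaggrin, read 42129 and 43073 in epidermis and 3.6 in PDKC1. The profilaggrin gene Flg read 21340 and 17850 against 3.9 (adjusted p = 2.41e-05). Lor, which encodes the main cornified envelope protein loricrin, read 28053 and 24960 against 256, and the early envelope protein gene Ivl read 17192 and 19758 against 164. For comparison, the 20th percentile of all probe sets on the PDKC1 array was 14.7, so Asprv1 and Flg lay below that mark and their exact fold is set by the 16 added to each value, while Lor and Ivl lay above it. Tgm1, the transglutaminase that crosslinks the envelope, read 3780 and 4054 against 22.5. The desquamation protease Klk5 read 24650 and 23111 against 45.4, and its inhibitor gene Spink5 read 13023 and 12016 against 4.1. Of these 35 genes Tchhl1, at 32.3 and 62.0 against 26.5, was the one not called. Lce and Sprr genes are families of close copies, so the value of a single member may include signal of its relatives.

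Among the barrier lipid enzymes, Acer1, a ceramidase of the upper epidermis, read 12251 and 8961 in epidermis and 4.5 in PDKC1. Alox12b, the lipoxygenase that oxidises barrier ceramides, read 7458 and 6532 against 13.7, and the ceramide synthase Cers3 read 9487 and 7338 against 18.9. Elovl4, which makes the very long fatty acids of those ceramides, read 12277 and 9832 against 43.0. On both epidermis arrays these genes were more than 100-fold above the line.

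Members of the granular list were lower together, and several share letters near the gene start. RefSeq promoter windows of GRCm38.p6 were available for 14452 of the 18193 genes, and the 250 bases before the most upstream start were searched. The TATA box letters TATAAA, read on the gene's own strand in the last 50 bases, stood in 12 of 31 granular and cornified genes with a window (38.7%) and in 2.98% of all genes. The AP-1 letters TGANTCA, on either strand, stood in 10 of the 31 (32.3%) and in 5.53% of all. The granular list was not alone: of 7 spinous genes 2 had the TATA letters (28.6%) and 3 the AP-1 letters (42.9%). Of 12 mesenchymal genes 2 had the TATA letters (16.7%) and 0 the AP-1 letters, and of 10 basal genes 0 had either. The Lce and other neighbouring genes are copies of one another, so the matches in the granular list are not independent. To show the letters, the 3 called granular genes with the largest differences among those with a TATA match follow, 5' to 3' on the gene's strand up to the base before the start, with the match in capitals; it begins 29, 31 and 30 bases before the start.
Lce1m, chr3:93019062-93019311, minus strand: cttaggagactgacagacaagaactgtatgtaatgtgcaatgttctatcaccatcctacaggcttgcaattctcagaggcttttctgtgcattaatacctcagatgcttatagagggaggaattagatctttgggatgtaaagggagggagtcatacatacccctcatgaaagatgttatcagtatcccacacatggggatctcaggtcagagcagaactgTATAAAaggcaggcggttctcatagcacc
Hrnr, chr3:93319499-93319748, plus strand: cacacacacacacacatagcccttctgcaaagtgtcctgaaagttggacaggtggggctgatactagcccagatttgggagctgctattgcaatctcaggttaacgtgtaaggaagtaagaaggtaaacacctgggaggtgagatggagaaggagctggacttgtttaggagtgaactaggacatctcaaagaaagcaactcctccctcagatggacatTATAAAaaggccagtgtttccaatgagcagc
Lce1d, chr3:92687211-92687460, minus strand: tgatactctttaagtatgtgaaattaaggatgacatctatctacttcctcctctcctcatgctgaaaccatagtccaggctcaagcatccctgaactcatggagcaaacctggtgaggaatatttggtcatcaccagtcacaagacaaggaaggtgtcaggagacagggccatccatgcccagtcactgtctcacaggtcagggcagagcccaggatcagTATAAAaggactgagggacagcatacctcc
Lce1m read 36531 and 34196 in epidermis and 6.9 in PDKC1, Hrnr, which encodes a filaggrin relative, 25406 and 21700 against 1.8, and Lce1d 33832 and 30988 against 66.3. A match is a description of letters and not of a bound factor.

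Most transcription factors of epidermal differentiation were lower as well. Of 22 measured factors 16 were lower and 0 higher (median -3.39), against 17.9% lower and 14.0% higher over all genes. Those that were dim in PDKC1 included the grainyhead factors, which control barrier genes, and Ovol1 and Zfp750, which act in the exit from the basal state. Grhl1 read 13761 and 11431 in epidermis and 21.8 in PDKC1, -8.38 ± 0.26 (SE) (adjusted p = 2.41e-05). Grhl3 read 3095 and 2549 against 45.1, and Grhl2 471 and 673 against 43.3. Zfp750 read 2984 and 3293 against 24.4, and Ovol1 read 2603 and 2816 against 39.4. Klf4, a barrier regulator, was lower but still bright, at 1881 against 24861 and 21056. Tfap2b (1329 and 1667 against 1774), Arnt2 and Trp63 were within 2-fold of both arrays, while Tfap2a (7301 and 7296 against 1566) and Tfap2c (5155 and 4776 against 424) were lower. Cebpb, at 3860 and 3822 against 1903, lay at the 2-fold limit and was not called. By their brightest probe set 6 of the 22 factors were thus called in neither direction. Of the 48 probe sets of the list 3 were called higher, all of them of Trp63, and 24 lower. When probe sets were averaged, 1 factor, Trp63, was called higher.

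Keratins other than the basal pair were mostly lower. Of 48 keratin genes measured 27 were lower and 1 higher, against 17.9% lower and 14.0% higher over all genes. Of the 18 keratins at 1000 or more on both epidermis arrays 15 were lower, and only 4 reached 1000 in PDKC1: Krt5, Krt14, Krt6a and Krt80. The keratins of wounds and hyperproliferative epidermis did not stand out in the line. Krt6a read 3090 and 4896 in epidermis and 2175 in PDKC1, within 2-fold of the first array (adjusted p = 0.111). Its pairing partners were lower: Krt16 read 2757 and 3995 against 162, and Krt17 read 9334 and 16047 against 35.0. Krt6b, a close copy of Krt6a, read 8455 and 11527 against 26.0 and was called lower. Across the 14 genes of the wound list 11 were lower and 0 higher (median -4.26).

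Of 8 simple epithelial keratins 3 were lower and 1 higher (median -0.82), against 17.9% lower and 14.0% higher over all genes. Krt23 read 11369 and 9404 in epidermis and 7.7 in PDKC1, and Krt7 read 371 and 450 against 26.1 (adjusted p = 0.00326). Krt8, the other lower one, read 133 and 119 against 12.5, and Krt18 read 6.1 and 46.9 against 21.1. The single keratin called higher was Krt13, a keratin of internal stratified epithelia, at 6.7 and 6.4 against 64.1, a low signal, and only 1 of its 3 probe sets was above epidermis. Keratins of the hair shaft and inner root sheath were mostly lower or dim. In that list 15 of 23 genes were lower and 0 higher (median -2.01), for example Krt27 at 1245 and 1905 against 6.3 and Tchh, which encodes trichohyalin, at 974 and 1202 against 2.1.

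**Figure D3:**
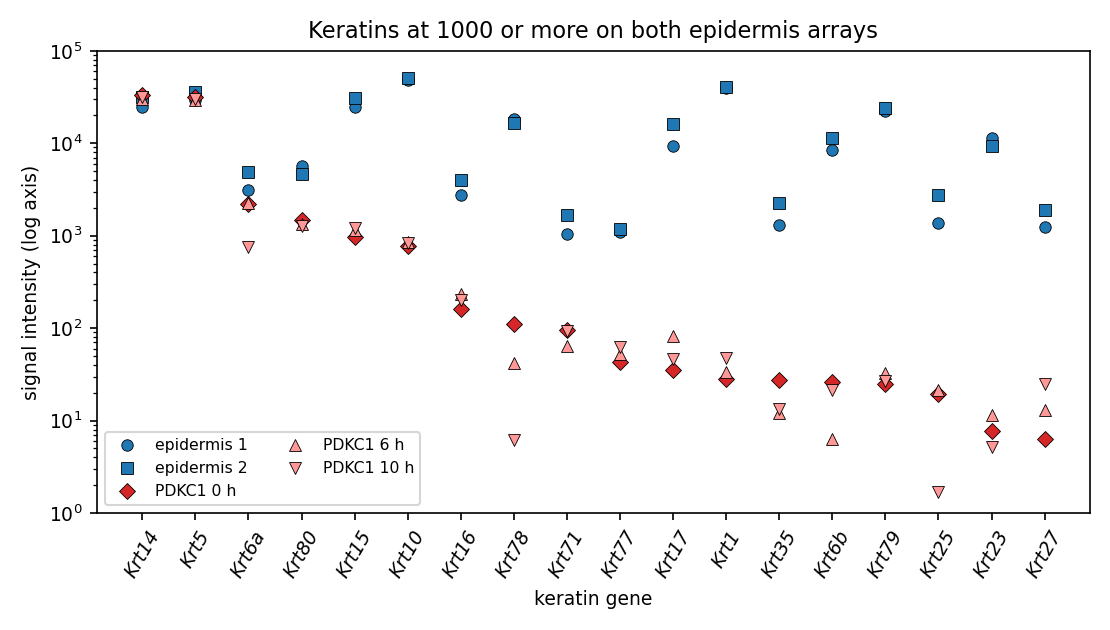
Signal intensity on a log axis of the 18 keratin genes at 1000 or more on both epidermis arrays, for the 2 epidermis arrays (blue) and PDKC1 at 0 h (red) and after 6 h and 10 h of cyclopamine (pink). Krt14 and Krt5 lie at the tissue level on every PDKC1 array, whereas Krt1, at 39199 and 40934 in epidermis, read 28.3 at 0 h.

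Genes of epithelial adhesion were mostly lower in PDKC1, among them epithelial cadherin and tight junction genes, and the desmosome genes were divided. Of 23 adhesion genes 16 were lower and 1 higher (median -3.12), against 17.9% lower and 14.0% higher over all genes. Cdh1, the E-cadherin of adherens junctions, read 7050 and 6656 in epidermis and 59.4 in PDKC1, -6.51 ± 0.24 (SE) (adjusted p = 3.11e-05). Epcam, an epithelial surface protein, read 8813 and 9236 against 9.6. Esrp1, a splicing factor of epithelial cells, read 14477 and 12792 against 46.1, and its relative Esrp2 read 5175 and 5080 against 234. All 4 lay more than 20-fold below both epidermis arrays.

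The tight junction genes Cldn4 (3185 and 3612 against 12.0), Cldn1 (8856 and 7443 against 772) and Ocln (1813 and 1677 against 37.1) were lower. So was Tjp1, their cytoplasmic scaffold, at 2402 against 6942 and 6805. In the desmosome, the plaque gene Jup read 2048 and 1640 against 1629 and Perp read 36092 and 40358 against 23575, both within 2-fold. Dsp, which links desmosomes to keratin, read 21877 and 21974 against 11360 with its brightest probe set. Limma called it lower (adjusted p = 0.0354), and of its other 2 probe sets 1 was called lower and 1 higher, so Dsp has no single direction here. Dsc3, the basal desmocollin, read 9853 and 10888 against 5322 and was not called, but its other probe set read 184 and 253 against 1207 and was called higher, so it has no single direction either. Pkp1 (29619 and 29224 against 12797), Pkp3 (8756 and 9678 against 1064) and the envelope plaque gene Ppl (14085 and 13497 against 1366) were lower. Pkp2, a plakophilin of simple epithelia, was the member called higher, at 82.9 and 93.0 against 468.

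**Figure D4:**
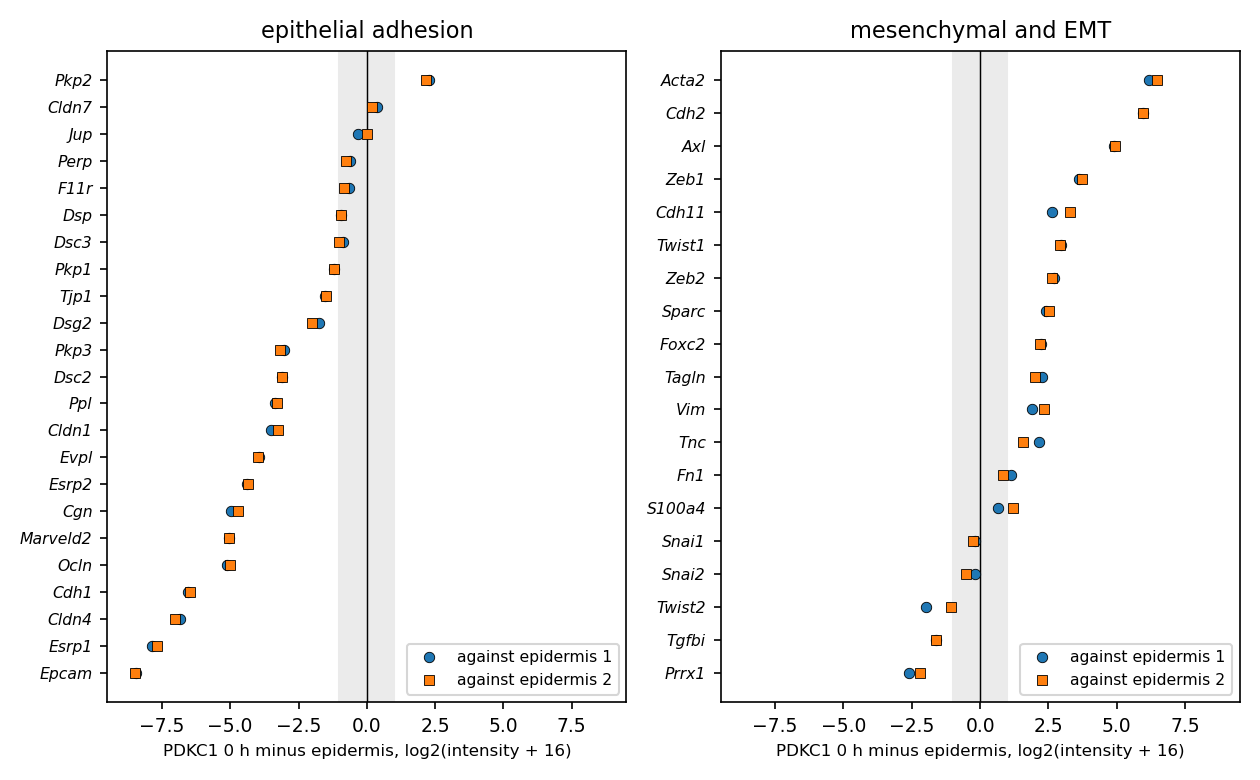
Difference of PDKC1 0 h from epidermis array 1 (circles) and array 2 (squares) on the log2(intensity + 16) scale, for the 23 measured epithelial adhesion genes and the 19 measured mesenchymal genes. The grey band marks differences under 2-fold. The arrays give nearly the same order, from Epcam at -8.46 on average to Pkp2 at 2.22, and from Prrx1 at -2.39 to Acta2 at 6.32.

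Genes associated with mesenchymal cells and epithelial-mesenchymal transition (EMT) were higher in 12 of 19 cases and lower in 3 (median 2.14). Limma called 13 higher and 2 lower. By the 2-fold rule 14.0% of all genes were higher and 17.9% lower. Acta2, smooth muscle actin, read 302 and 242 in epidermis and 22868 in PDKC1, 6.32 ± 0.27 (SE) (adjusted p = 4.45e-05). Cdh2, the N-cadherin of mesenchymal and neural cells, read 20.1 on both epidermis arrays and 2258 in the line. Axl, a receptor tyrosine kinase, read 239 and 237 against 7684, and Zeb1, a repressor of the E-cadherin gene, read 147 and 134 against 1987. For each of these 4 genes PDKC1 lay more than 12-fold above both arrays by the brightest probe set. Called higher were 2 of 3 probe sets for Acta2, 2 of 2 for Cdh2, 1 of 2 for Axl and 3 of 4 for Zeb1. The dimmer Acta2 probe sets read 196 and 36.5 in PDKC1.

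Other members, chosen after their values were seen, did not all go one way. Vim, the intermediate filament vimentin, read 5904 and 4366 against 22198, and all 3 of its probe sets were higher. The repressors Snai2 (8731 and 10846 against 7601) and Snai1 (54.2 and 57.6 against 45.7) were within 2-fold, although 1 of 2 Snai2 probe sets was called higher. Prrx1 (192 and 141 against 18.5) and Twist2 (261 and 132 against 54.6) were lower, whereas Twist1 (40.3 and 41.6 against 424) was higher. Cdh11 and Sparc were higher by 6.11-fold and 5.38-fold over the nearer array.

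Fibroblast and matrix markers went the opposite way from the mesenchymal list: 11 of 16 were lower and 1, Col5a1, higher (median -2.14). Their summed intensity was 23895 and 23070 in epidermis and 4438 in PDKC1, of which Col5a1 and Fbln1 gave most. Col3a1 read 4683 and 2791 against 33.7, and Lum read 1138 and 702 against 13.2. Dcn read 4643 and 6076 against 118.7. Postn and Twist2 belong to other lists as well. Over all genes 17.9% were lower and 14.0% higher. Col3a1, Lum and Dcn were thus more than 20-fold below both epidermis arrays in the line in which Acta2 and Cdh2 were higher.

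Macrophage and melanocyte markers were mostly lower in the line, whereas the other lists given here had no majority of called genes. Over all genes 17.9% were lower. Many members of those other lists were dim in epidermis itself, which leaves less room for a lower call. Under 64 on epidermis arrays 1 and 2 were 4 and 5 of 8 mast cell genes and 7 and 6 of 9 T and NK cell genes. For endothelium these were 7 and 6 of 12. Of 12 macrophage genes 9 were lower (median -3.51), with a summed intensity of 10605 and 9224 in epidermis and 1212 in PDKC1. Csf1r, the macrophage growth factor receptor, read 6152 and 4565 against 96.2. Of 11 melanocyte genes 7 were lower (median -2.30), with sums of 13438 and 15887 against 1389; the pigment enzyme gene Dct read 6225 and 7174 against 85.6. Lower counts stood at 3 of 8 for mast cells, 3 of 7 for class II and Langerhans cells, 2 of 8 for Merkel cells, 1 of 6 for neutrophils, 1 of 9 for T and NK cells, 1 of 3 for erythroid cells and 0 of 4 for adipocytes, with none higher. For endothelium 2 of 12 were lower and 1 higher, and for Schwann cells 0 of 4 and 1. Skeletal muscle genes were higher in 4 of 13 and lower in 1, all called members lying under 100 on the 3 arrays compared and none passing limma. In a tissue, fewer cells of a type and less RNA per cell cannot be told apart.

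Most DNA replication genes were higher in PDKC1, while most mitosis genes were not 2-fold or more from both arrays of the newborn tissue, which itself contains dividing basal cells. Of 37 replication and S phase genes 27 were higher and 0 lower (median 1.47), and limma called 26 higher. Of 35 mitosis genes 8 were higher and 1 lower (median 0.44), and limma called 5 higher. By the 2-fold rule 14.0% of all genes were higher and 17.9% lower. Of the 82 probe sets of replication genes 53 were higher and 0 lower, against 18.6% higher over all probe sets, and in 18 of the 37 genes every probe set was higher. For mitosis 24 of 81 probe sets were higher and 4 lower.

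Mcm3, a subunit of the replicative helicase, read 730 and 1148 in epidermis and 5094 in PDKC1, 2.45 ± 0.34 (SE) (adjusted p = 0.003), and all 5 of its probe sets were higher. The other 5 helicase subunits measured in the core complex, Mcm2, Mcm4, Mcm5, Mcm6 and Mcm7, were also called higher, from 3.37-fold for Mcm2 to 2.08-fold for Mcm7 over the nearer array. Rfc3, a subunit of the clamp loader, read 185 and 257 against 1597. Pcna, the sliding clamp, read 7170 and 10295 against 21135, 2.05-fold above the brighter epidermis array. Cdc6, which loads the helicase at origins, read 414 and 371 against 1727. Rrm2, a subunit of ribonucleotide reductase, read 2952 and 3175 against 12202. Gins2, Cdc45, Mcm10 and Orc1 were above both arrays by less than 2-fold over the nearer one (1 of 2 Gins2 probe sets was called higher), and Ccne1 read 306 and 456 against 427. The second epidermis array was the brighter one for most of these genes, so the distance to it set most calls.

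The E2F letters TTCCCGC or TTGGCGC, on either strand, stood in the 250 bases before the start of 10 of 30 replication genes with a RefSeq window (33.3%), in 2 of 29 mitosis genes (6.9%) and in 8.56% of all genes. E2F factors drive S phase genes, among them many of this list. To show the letters, the 3 replication genes called higher with the most matches follow, ties broken by size of difference, with matches in capitals (GRCm38.p6, gene's strand, up to the base before the start).
Mcm6, chr1:128359706-128359955, minus strand: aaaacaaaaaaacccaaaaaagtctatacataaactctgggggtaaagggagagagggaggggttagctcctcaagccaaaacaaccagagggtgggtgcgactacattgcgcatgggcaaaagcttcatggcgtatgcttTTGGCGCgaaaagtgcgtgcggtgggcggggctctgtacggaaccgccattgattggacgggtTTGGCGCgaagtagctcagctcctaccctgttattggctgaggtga
Mcm5, chr8:75109259-75109508, plus strand: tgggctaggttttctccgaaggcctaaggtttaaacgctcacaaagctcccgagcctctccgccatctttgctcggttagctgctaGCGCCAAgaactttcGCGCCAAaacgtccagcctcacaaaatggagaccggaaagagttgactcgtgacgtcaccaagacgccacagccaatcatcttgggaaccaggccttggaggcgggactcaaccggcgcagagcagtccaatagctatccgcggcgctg
Cdc6, chr11:98907901-98908150, plus strand: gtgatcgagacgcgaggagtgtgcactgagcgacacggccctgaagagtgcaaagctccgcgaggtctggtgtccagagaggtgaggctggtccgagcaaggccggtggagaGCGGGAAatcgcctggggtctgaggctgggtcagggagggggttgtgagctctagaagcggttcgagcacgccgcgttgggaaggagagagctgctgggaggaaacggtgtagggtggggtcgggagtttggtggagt
Mcm6 has 2 matches and read 2109 and 2497 in epidermis and 8403 in PDKC1. Mcm5 has 2 matches and read 2276 and 2964 against 7339. Cdc6 has 1, and in the same window no match was found in 20 of the 30 replication genes, which says nothing of the factors that bind them.

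By the rule 26 of 35 mitosis genes were called in neither direction, while 8 were higher and 1 lower. Over all genes 14.0% were higher and 17.9% lower. Cdk1, the mitotic kinase, read 864 and 1082 in epidermis and 4562 in PDKC1 (adjusted p = 0.00353), and Nuf2, a kinetochore subunit, read 120 and 142 against 675. Top2a, the topoisomerase that untangles chromosomes, read 1160 and 1793 against 4299 and did not pass limma (adjusted p = 0.0995). In contrast, Mki67, the common proliferation marker, read 1900 and 2790 against 1161, and Ccnb2, a B cyclin, read 695 and 852 against 479. Plk1 (361 and 882 against 450), Bub1b and Cenpa lay between or close to the epidermis arrays, which themselves differed by over 2-fold for Plk1. Cdca8, a chromosomal passenger, was the gene called lower, at 2420 and 2521 against 1124, without passing limma (adjusted p = 0.178). Without epidermis array 2 the count of mitosis genes called higher was 15 instead of 8.

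Among regulators of the cell cycle the D cyclins Ccnd1 and Ccnd2 were higher and Cdkn1a lower. Of 24 cyclin, kinase, inhibitor and E2F genes 9 were higher and 4 lower (median 0.52), beside 14.0% higher and 17.9% lower over all genes. Ccnd1, cyclin D1, read 941 and 1097 in epidermis and 9128 in PDKC1, 3.15 ± 0.26 (SE) (adjusted p = 0.00036), and all 3 of its probe sets were higher. Ccnd2, cyclin D2, read 6411 and 9365 against 23459, with 6 of 7 probe sets higher, while Ccnd3 read 1177 and 1121 against 1149, with 1 of 3 probe sets higher. Cdkn1a, the p21 inhibitor that is also bright in differentiating keratinocytes, read 15391 and 14169 against 2856 (adjusted p = 0.00596). Cdkn1c, the p57 inhibitor, read 582 and 427 against 95.6. The inhibitors Cdkn2a (62.3 and 40.3 against 389) and Cdkn1b (349 and 443 against 1391) were higher. E2f1 was higher by 2.74-fold over the nearer array, E2f2 lower by 4.23-fold, and Rb1, the retinoblastoma gene, lower at 1145 against 2774 and 2323.

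**Figure D5:**
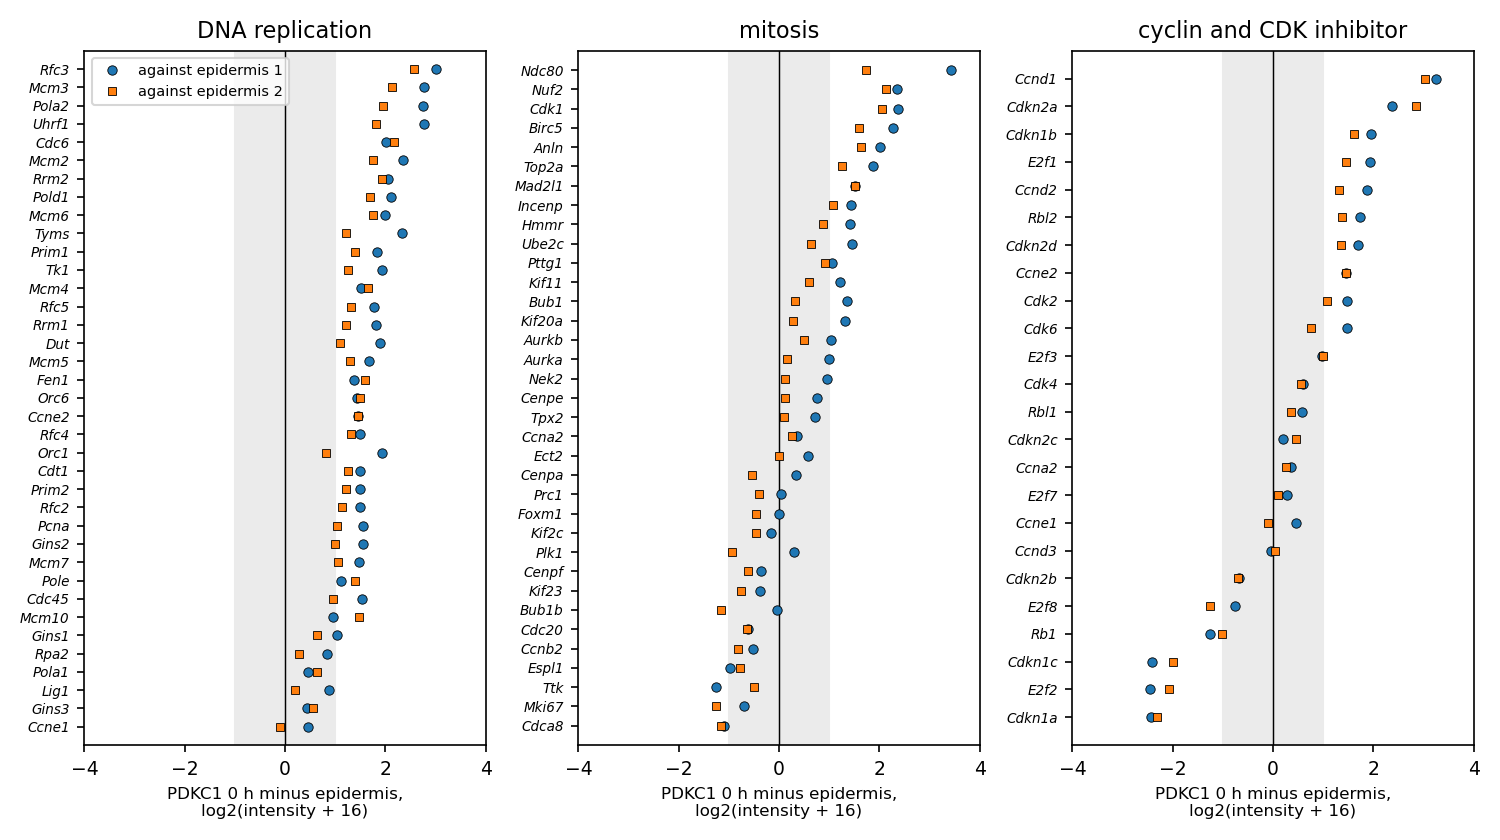
Difference of PDKC1 0 h from epidermis array 1 (circles) and array 2 (squares) on the log2(intensity + 16) scale for the measured genes of DNA replication (37), mitosis (35) and the cyclin and CDK inhibitor list (24), with the band under 2-fold in grey. Replication genes lie almost all to the right, from Ccne1 at 0.19 to Rfc3 at 2.78 on average, whereas mitosis genes run from -1.13 for Cdca8 to 2.59 for Ndc80.

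Genes of MYC and ribosome assembly were higher in 10 of 26 cases and lower in 3 (median 0.74). For this list and the ribosomal one, the shares over all genes were 14.0% higher and 17.9% lower. Nolc1, a nucleolar assembly factor, read 853 and 819 in epidermis and 3226 in PDKC1. The lower members were MYC-network genes: Mxd1, an antagonist that is bright in differentiating cells, read 2366 and 1646 against 91.4, Mxi1 read 5227 and 4805 against 1050, and Mycl read 295 and 424 against 6.5. Myc itself, chosen after its value was seen, read 1150 and 1367 against 2769, 2.01-fold above the nearer array and not called by limma (adjusted p = 0.147). Cytosolic ribosomal protein genes were level, with 2 of 28 higher, 2 lower and a median of -0.06, which turned to 0.17 under quantile normalization and to 0.02 when probe sets were averaged.

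Hedgehog signalling drives basal cell carcinoma, and in skin the ligand Shh comes from growing follicles. Of 15 Hedgehog genes 3 were higher and 3 lower (median 0.13, and -0.09 under quantile normalization), against 14.0% and 17.9% of all genes. Shh read 3827 and 5447 in epidermis and 55.8 in PDKC1. Gli1, a gene that responds to the pathway, was chosen after its value was seen and read 190 and 293 against 842. Hhip, another such gene, whose product binds and holds back the ligand, read 46.5 and 18.3 against 240. Gli3, a transcription factor of the pathway, read 366 and 419 against 1358. Ptch1, the receptor and a target itself, read 11683 and 12073 against 2185 with its brightest probe set, but its other 2 probe sets, at 19.4 or less and 22.9 or less in epidermis, read 125.9 and 97.3 in PDKC1, so that the mean of its probe sets reversed to 0.67.

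Growth factor genes went both ways within families, beside 14.0% higher and 17.9% lower over all genes. In the EGF receptor family 3 of 12 genes were higher and 4 lower. Erbb3, the kinase-poor receptor, read 7003 and 6761 in epidermis and 32.0 in PDKC1 (adjusted p = 3e-05), and its neuregulin ligand gene Nrg1 read 55.5 and 3.7 against 774. The ligand gene Btc was lower (7371 and 5487 against 321) and Epgn higher (140 on both arrays against 1121). In the IGF and FGF axis 6 of 23 were higher and 8 lower, with a median of -0.25 that turned to 0.24 with the mean of all probe sets. Hmga2, a chromatin protein of fetal and growing cells, read 261 and 405 against 14160, with all 4 probe sets higher. Met, the hepatocyte growth factor receptor, read 709 and 914 against 7833. Fgfr3 was lower, at 203 against 2691 and 3071, and so was the fetal growth factor gene Igf2, at 888 against 7307 and 8986.

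In the Wnt list 3 of 23 genes were higher and 9 lower (median -0.92). The shares over all genes, for this list and the Notch list, were 14.0% higher and 17.9% lower. The 2 largest differences in the Wnt list were of secreted antagonists: Wif1 read 192 and 217 in epidermis and 13275 in PDKC1, and Dkk3 read 294 and 325 against 7757. The ligand genes Wnt4 (5913 and 5585 against 410) and Wnt16 (129 and 144 against 3.6) were lower. In the Notch list, a pathway that promotes spinous fate, 2 of 15 were higher and 5 lower (median -0.86). Notch3 read 2003 and 1369 against 102, and the feedback gene Nrarp read 8629 and 8954 against 1306. Jag1, a ligand, was higher at 4536 against 1423 and 1375. Heyl, a target, was lower by its brightest probe set (200 and 238 against 59.2), yet 1 of its 3 probe sets was called higher and their mean stood at 0.27.

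Among p53 targets 5 of 17 were higher and 5 lower (median 0.20, but -0.13 under quantile normalization and 1.09 when probe sets were averaged). Of their 32 probe sets 12 were higher and 6 lower. Among all genes 14.0% were higher and 17.9% lower. Phlda3, a repressor of AKT signalling, read 458 and 482 in epidermis and 6437 in PDKC1, and the death receptor gene Fas read 37.5 and 22.0 against 444. Gadd45a read 205 and 266 against 1939. Cdkn1a, in contrast, was lower as given above.

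Genes of matrix breakdown and wound invasion were higher in 10 of 19 cases and lower in 3 (median 1.64). All genes were higher in 14.0% and lower in 17.9%. Mmp3, the protease stromelysin, read 68.3 and 29.2 in epidermis and 5329 in PDKC1. Its inhibitor gene Timp1 read 58.9 and 73.5 against 3433. Thbs1, the matrix protein thrombospondin, read 75.8 and 129.7 against 4645. Serpinb2, an inhibitor of plasminogen activators that is bright in differentiating cells, was lower at 324 against 10054 and 7291.

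Immediate early genes, which respond within minutes to handling and growth factors, were lower in 12 of 20 cases and higher in 2 (median -1.53). Over all genes 17.9% were lower and 14.0% higher. Fos read 22027 and 22751 in epidermis and 915 in PDKC1, Egr2 3857 and 3958 against 47.7, and Egr3 10123 and 8065 against 299. Ccn1 and Ccn2, chosen after their values were seen, were the 2 higher genes. The time from dissection or rinsing to lysis is not given in the sources used here, and its part in these values was not tested.

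Metabolic lists were lower or mixed, beside shares of 14.0% higher and 17.9% lower over all genes. In mevalonate and sterol synthesis 9 of 18 genes were lower and 0 higher (median -1.13), for example Pmvk at 3019 and 2908 against 230 and Hsd17b7 at 9512 and 7983 against 996. In the glycolysis and hypoxia list 10 of 21 were lower and 2 higher (median -0.34). Lower members included the hypoxia-responsive genes Egln3 (8085 and 6272 against 95.9) and Adm (1556 and 1134 against 6.9), whereas Slc2a1, the glucose transporter, was higher at 9149 against 3612 and 3289; Slc2a1 was chosen after its value was seen. Of 10 sebaceous genes 4 were lower and 1 higher, with Dgat2 at 13588 and 12984 against 234. Of 18 follicle epithelium genes 7 were lower and 3 higher (median -0.77), with the placode and hair germ factor Lhx2 at 586 and 739 against 42.8.

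Immune genes of keratinocytes went both ways, as did all genes, of which 14.0% were higher and 17.9% lower. In the interferon and class I list 4 of 21 were higher and 9 lower (median -0.51). Irf7, an interferon-induced factor, read 2205 and 1810 in epidermis and 67.2 in PDKC1, and Bst2, an antiviral membrane protein, read 13.5 and 5.1 against 378. In the antimicrobial and cytokine list 2 of 19 were higher and 5 lower (median -0.45). The interleukin 1 family split: Il1rn (1996 and 1577 against 51.5), Il18 (11201 and 8344 against 1034) and Il1a (481 and 215 against 20.8) were lower, and Il33 was higher at 2566 against 145 and 81.7.

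The 10 largest differences in each direction, among genes whose probe sets all had the same sign, contained no gene of the basal list. Many read under 20 on the dimmer side, where the added 16 sets the size of the fold and the order within these lists. The lower ones were Asprv1, Lce1c, Lce1m, Psapl1, Csta1, Hrnr, Them5, Krtdap, Flg and Krt1, all at 10000 or more on both epidermis arrays and under 100 in PDKC1. Psapl1, a relative of prosaposin, read 43483 and 40540 against 13.9, and Csta1, a cystatin, read 24868 and 22852 against 1.5. The higher ones were Mlkl, Ptgs2, Fgf5, Fads3, Akap12, Brinp3, Acta2, Prune2, Mmp3 and Cdh2. Mlkl, the effector of necroptosis, read 4.7 and 7.4 in epidermis and 2577 in PDKC1 (adjusted p = 0.0003). Ptgs2, the inducible cyclooxygenase, read 2.4 and 17.7 against 3701, and Fgf5, a growth factor that ends hair growth, read 4.2 and 2.5 against 1954. Akap12, a signalling scaffold, read 73.8 and 51.8 against 6916. Except for Acta2, these genes were under 100 on both epidermis arrays.

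The other PDKC1 arrays share the epidermis arrays as their only tissue reference and were exposed to cyclopamine, so they are set beside 0 h only as levels. Krt14 read 30255 at 6 h and 31729 at 10 h, close to 33585 at 0 h. Cdh2 and Acta2 stayed bright, Acta2 at 20040 and 21187. Krt6a read 2234 at 6 h and 751 at 10 h against 2175 at 0 h. Ptch1 read 686 and 550 against 2185, and Fgf5 read 1140 and 656 against 1954. The basal keratin and smooth muscle actin levels thus did not rest on the 0 h array alone, while Krt6a, Ptch1 and Fgf5 were lower on the 10 h array than at 0 h.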

How the data were processed

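RNA was measured on 7 single-channel Affymetrix arrays. The authors deposited a linear signal intensity for each of 45101 probe sets. How it was summarised and normalized, and with which build, is not stated here by any label or header. The mean of each array without its lowest and highest 2% of values was 500, so no further scaling was applied. The number of arrays limits the precision.

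Left out were 64 control probe sets, 932 that name more than 1 gene and 9160 that name none. The 34945 kept cover 18193 genes, 9010 of them through more than 1 probe set. Each gene took its probe set of highest mean log2 value over the 7 arrays. Gene names came from GEO's platform annotation. Of 747 genes in 42 lists 684 were measured, and the others were not analysed here. The members and lists were chosen with earlier results of these data known.

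PDKC1 0 h was compared with each epidermis array, with 16 added before log2 and a limit of 2-fold against both. limma (version 3.58.1, under R 4.3.3) was fitted to 5 arrays (PDKC1 0 h, epidermis, tumour) with empirical Bayes variances that follow a trend, Benjamini-Hochberg adjustment over all genes and two-sided tests at 0.05. The fit was tested on simulated data. Named genes were the 10 most different each way among called genes with probe sets of 1 sign, up to 4 called members of each list (or the 2 brightest), any member of the keratinocyte, adhesion and cell cycle lists, and the keratins. Exceptions are stated. Alternatives changed the scaling, the pseudocount (4 or 64), the filter on dim genes, the probe set rule, the fold limit, the arrays in the fit, the variance trend and the epidermis arrays used. Promoters were read from RefSeq windows.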

Additional observations from a re-analysis of the deposited data

How the results depend on the processing

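No paired analysis was possible because the PDKC1 0 h array carries no replicate number to share with the epidermis arrays. The count of genes at least 2-fold from both epidermis arrays was 5810. It was 2118 (698 higher, 1420 lower) at a 4-fold limit, 3556 (1634 and 1922) where every probe set of a gene had to be called the same way, and 11374 probe sets, 6490 of them higher, where each probe set was counted. Counted so, 57.1% of calls were higher, against 43.9% by gene. Scaling by quantiles gave 2270 higher and 3460 lower, and centring 2308 and 3478. The limma count was 6638 (3042 higher) with only the 3 arrays compared, and without either epidermis array it ranged from 1538 to 1766 in all, 450 to 563 higher and 1088 to 1203 lower, the lone arrays being taken to vary like the tumour pair. Mitosis genes higher ranged from 8 to 15 when an epidermis array was left out, with 15 without array 2. Mitosis genes lower numbered 2 under quantile normalization and 2 to 3 without an epidermis array. With 1 value per gene and the 2-fold limit, DNA replication genes higher ranged from 24 to 31, basal genes higher from 7 to 8 and mesenchymal genes higher from 12 to 13. Granular genes lower ranged from 33 to 34, spinous genes lower from 10 to 11, adhesion genes lower from 15 to 17 and transcription factors lower from 13 to 18. Where every probe set of a gene had to be called the same way, these counts were smaller for most lists. They were then 18 for DNA replication, 4 for basal and 6 for mesenchymal genes higher. Genes lower then numbered 33 for granular, 9 for spinous and 13 for adhesion genes, and 10 for transcription factors. Medians changed sign under quantile normalization for ribosomal genes (0.17), Hedgehog (-0.09) and p53 targets (-0.13, and 1.09 when probe sets were averaged), when probe sets were averaged for ribosomal genes (0.02) and the IGF and FGF axis (0.24), with dim genes left out for skeletal muscle (-0.11) and without epidermis array 1 for erythroid genes (-0.12, against 0.77 without array 2). The median over all genes was -0.14 after centring and 0.04 when probe sets were averaged. Of 368 named or listed genes set under each alternative, 2 reversed, both when probe sets were averaged: Heyl at 0.27 and Ptch1 at 0.67. In that setting 21 lost their call, and with a pseudocount of 64, 18 did. The cause was not tested. Array number and 5' signal limit the precision.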

Other observations

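These genes were chosen after their values were seen. The fatty acid desaturase genes Fads1, Fads2 and Fads3, which are neighbours in the RefSeq annotation, were all higher in PDKC1. Fads3 read 59.5 and 16.8 in epidermis and 7096 in PDKC1, Fads2 read 51.7 and 92.3 against 4286, and Fads1 read 218 and 219 against 6136. Fen1, the next gene and a DNA replication enzyme, read 3106 and 2676 against 8084. Beyond the block, Myrf was lower, at 11.8 against 54.0 and 83.3, and Best1 was dim on all 3 arrays.

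The chromosomal neighbourhood of the cornified envelope genes was not uniform. Of 49 measured genes from S100a1 to S100a10 in the RefSeq order, 38 were lower in PDKC1, 2 were higher and 9 were neither. Among all genes 17.9% were lower and 14.0% higher. The 2 higher genes were the calcium-binding S100a6, at 915 and 1297 in epidermis and 23444 in PDKC1, and S100a13, at 235 and 223 against 794. Within the same family S100a14 read 12118 and 11671 against 12.4, and S100a16 read 23858 and 23423 against 1382. S100a10, at the far end, was within 2-fold at 8619 and 7337 against 14659 by its brightest probe set, while the other 2 of its 3 probe sets were called higher.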
